A study of Oryctolagus cuniculus with 9 samples.

Results

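The enzymes and helpers that fold, hydroxylate and trim procollagen were followed in rabbit (Oryctolagus cuniculus) vocal folds as a set of 9 named genes, out of 20525 genes in the deposited table. The members are P4HA1, P4HA2, P4HA3, PLOD1, PLOD2, PLOD3, SERPINH1, PCOLCE and CRTAP, and they were chosen by name. All 9 were measured and all 9 passed the filter on low counts. For 7 members the table carried the symbol, while PLOD3 and SERPINH1 stood under locus numbers and were matched through their gene IDs to RefSeq names (assembly mOryCun1.1, of which nothing but the names was taken). There were 3 groups with 3 libraries each: injured vocal folds given a hydrogel called SOT, injured vocal folds left untreated, and normal vocal folds without injury. The study title describes the gel as antioxidant and adhesive, and the labels do not expand the name SOT. Injured tissue was taken 1 week after injury. The labels give no strain, sex or age of the rabbits and do not say whether each replicate is an animal of its own. A p-value here therefore reflects the spread among these libraries, and some of that spread may be technical.

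Collagen chains are made in the endoplasmic reticulum, where prolyl hydroxylases modify proline so that the triple helix is stable at body temperature and lysyl hydroxylases modify lysine, which later carries sugars and crosslinks. The chaperone SERPINH1, also called HSP47, binds the folded procollagen before it is exported. Outside the cell the propeptides are cut off, and lysyl oxidases then start the crosslinks that make a fibril insoluble. In the vocal fold, the loose collagen network of the lamina propria is part of what lets the mucosa vibrate, and scarred folds are known for dense and disordered collagen.

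Total counts lay between 44755718 and 50338111 per library, and 17344 genes were tested. The cell type label names histiocytes, the resident macrophages of tissue, but summed markers of stratified epithelium were at 9989 to 30395 normalised counts (CPM) over the 9 libraries, above the 332 to 1512 CPM of macrophage markers, so the samples are described here as whole tissue. Summed fibroblast markers, the cells that make most fibrillar collagen, were at 3028 to 4928 CPM in SOT folds, 3903 to 4265 CPM in untreated folds and 2651 to 3557 CPM in normal folds. Of these 7 fibroblast markers, 2 rose, 2 fell and 3 were not called in untreated against normal folds, where 32.8% of all genes were called. The number that fell was 1 without normal replicate 1 or 2 or any untreated replicate, since the call of DCN, which encodes decorin, was then lost (adjusted p = 0.0621 to 0.0890, against 0.0248 with all libraries by edgeR). Summed skeletal muscle markers were at 1281 to 5499.7 CPM in SOT folds, 514 to 4607 CPM in untreated folds and 11655 to 14136 CPM in normal folds. Summed cartilage markers were at 109 to 334 CPM, 73.7 to 103 CPM and 1074 to 2045 CPM in the same order of groups, with COL9A1 and MATN1 at 0 in at least 1 library.

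Markers of white blood cells and vessels were higher in untreated than in normal folds, as the members were, and those of nerve sheaths were lower. Summed macrophage markers were at 581 to 1024 CPM in SOT folds, 1411 to 1512 CPM in untreated folds and 332 to 476 CPM in normal folds. Of these, 5 of 7 rose in untreated against normal folds, where 17.7% of all genes were called higher. Summed neutrophil markers were at 1764.5 to 4659 CPM, 4703 to 6919.7 CPM and 587 to 2039.6 CPM in the same order of groups, with 5 of 7 called higher and CAMP at 0 in at least 1 library. Summed endothelium markers were at 540.2 to 1569.6 CPM, 1283 to 1449.6 CPM and 406 to 672 CPM, with 3 of 7 called higher (5 without SOT replicate 1). Summed Schwann cell markers were at 60.7 to 108 CPM, 52.6 to 74.3 CPM and 384 to 716 CPM, with 4 of 7 called lower. In RNA from whole tissue, fewer cells of a type and less RNA per cell cannot be told apart, and the part of tissue composition in the results that follow was not tested.

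All 9 members were higher in untreated injured folds than in normal folds, and all 9 passed the test (edgeR's quasi-likelihood test, Benjamini-Hochberg adjusted p under 0.05 over all genes tested). In that comparison 17.7% of all tested genes were called higher and 32.8% were called in either direction. The members' log2 fold changes were between 0.90 for CRTAP and 3.73 for P4HA3, with a median of 1.37, against a median of -0.02 over all tested genes. The lowest untreated library lay above the highest normal library for each of the 9 members, as it did for 28.0% of all genes. The gain was widest in P4HA3, which was 13.3-fold higher, and between 1.87-fold and 3.75-fold in the other members.

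**Figure D1:**
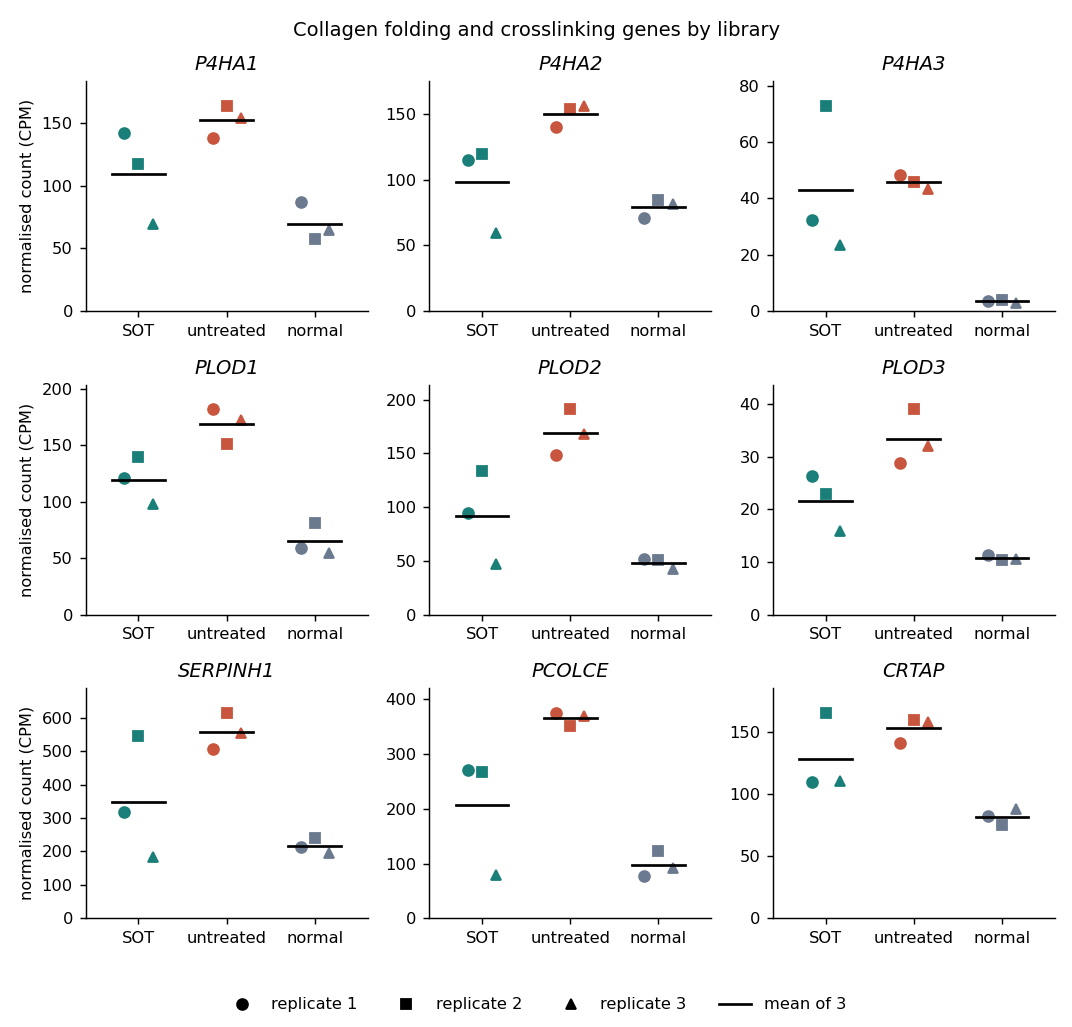
Normalised counts (CPM, linear axes from 0) of each of the 9 members in each library, with SOT folds on the left, untreated injured folds in the middle and normal folds on the right, a point for each library (its shape gives the replicate number) and a line for the mean of 3. The untreated points stand above the normal points in all 9 panels, and the SOT points are the most spread in most panels.

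Prolyl 4-hydroxylase is built from a catalytic alpha subunit, encoded by P4HA1, P4HA2 or P4HA3, and the protein disulfide isomerase P4HB, which was not analysed here. P4HA3, on chromosome 1 at 142281922 to 142320555 of the build OryCun2.0, had 32.5, 73.0 and 23.3 CPM in the SOT libraries, 48.4, 45.9 and 43.4 CPM in the untreated libraries and 3.44, 4.09 and 2.82 CPM in the normal libraries. Every injured library, treated or not, was thus far above every normal library, while the SOT libraries fell on both sides of the untreated ones. Its log2 fold change was 3.73 in untreated against normal folds (SE 0.42, adjusted p = 0.000857 by edgeR).

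P4HA1, on chromosome 18 at 14332290 to 14438275, had 142, 117 and 69.8 CPM in SOT folds, 138, 164 and 154 CPM in untreated folds and 86.8, 57.4 and 64.6 CPM in normal folds. The untreated and normal libraries did not overlap, and SOT replicate 3 lay among the normal libraries. P4HA1 rose 2.19-fold in untreated against normal folds (log2 1.13, SE 0.26, adjusted p = 0.0123 by edgeR). P4HA2, on chromosome 3 at 15256234 to 15293994, had 115, 119 and 59.8 CPM in SOT folds, 140.2, 154 and 156 CPM in untreated folds and 70.8, 84.6 and 81.3 CPM in normal folds. SOT replicate 3 was here the lowest of the 9 libraries, and all 3 SOT libraries were below all 3 untreated ones. P4HA2 rose in untreated against normal folds (log2 fold change 0.93, SE 0.24, adjusted p = 0.0189 by edgeR). That call did not survive the loss of untreated replicate 2 (0.0574) or 3 (0.0641) or of normal replicate 1 (0.0676) or 3 (0.0543). Leaving out each of the 9 libraries in turn gave adjusted p of 0.00115 to 0.0676 and log2 fold changes of 0.85 to 0.98. With only the 2 groups compared, the adjusted p was 0.00145 by edgeR.

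The lysyl hydroxylases rose together in untreated against normal folds. PLOD2, the enzyme that hydroxylates lysines in the telopeptides and so sets the type of crosslink, lies on chromosome 14 at 39741249 to 39840307. It had 94.7, 134 and 47.6 CPM in SOT folds, 149, 191 and 168 CPM in untreated folds and 51.8, 50.6 and 42.6 CPM in normal folds. The normal libraries were close together, and the SOT libraries were spread from the normal range upwards without reaching the untreated libraries. PLOD2 rose 3.50-fold in untreated against normal folds (log2 1.81, SE 0.32, adjusted p = 0.00481 by edgeR).

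PLOD1, which hydroxylates lysines within the helix, lies on an unplaced scaffold at 2099089 to 2128215. It had 121, 139.7 and 98.1 CPM in SOT folds, 182, 151 and 172 CPM in untreated folds and 59.3, 80.9 and 54.9 CPM in normal folds, so the 3 groups were separate. PLOD1 rose 2.59-fold in untreated against normal folds (log2 1.37, SE 0.19, adjusted p = 0.0017 by edgeR). PLOD3, whose protein can also add sugars to hydroxylysine, had 26.3, 22.8 and 15.8 CPM in SOT folds, 28.9, 39.0 and 31.9 CPM in untreated folds and 11.3, 10.4 and 10.5 CPM in normal folds. Again the 3 groups did not overlap, and PLOD3 rose 3.10-fold in untreated against normal folds (log2 1.63, SE 0.20, adjusted p = 0.00119 by edgeR).

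The PLOD3 values are uncertain in level. Its row, on an unplaced scaffold at 251372 to 253118, is described as a partial gene model, and a gene on the same strand that lies 1904 bases away is described as lysyl hydroxylase 1 under a locus number of its own. A partial serpin H1 model likewise stands on chromosome 19 apart from SERPINH1. When the counts of these rows were added to the members, a check chosen after the data were seen, the log2 fold changes in untreated against normal folds were 1.43 for PLOD3 and 1.39 for SERPINH1, and both passed.

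SERPINH1 lies on chromosome 1 at 141171454 to 141175283. It had 316, 545 and 184 CPM in SOT folds, 505, 614 and 555 CPM in untreated folds and 214, 241 and 195 CPM in normal folds. SOT replicate 2 lay within the untreated range and SOT replicate 3 below all normal libraries. SERPINH1 rose 2.58-fold in untreated against normal folds (log2 1.37, SE 0.34, adjusted p = 0.0167 by edgeR). Its call too was lost without untreated replicate 2 (0.0542) or 3 (0.0515) or normal replicate 1 (0.0551) or 3 (0.0592). Over the 9 left-out libraries the adjusted p was 0.00373 to 0.0592 and the log2 fold change 1.29 to 1.45. With only the 2 groups compared, the adjusted p was 0.000942 by edgeR.

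CRTAP, a non-catalytic partner of the prolyl 3-hydroxylase P3H1 and of PPIB, lies on chromosome 14 at 20068006 to 20090529. It had 109.7, 166 and 110.4 CPM in SOT folds, 141, 159 and 159 CPM in untreated folds and 82.0, 75.0 and 88.3 CPM in normal folds. SOT replicate 2 was the highest of the 9 libraries, and all 3 normal libraries were below all injured ones. CRTAP rose 1.87-fold in untreated against normal folds (log2 0.90, SE 0.17, adjusted p = 0.00571 by edgeR).

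PCOLCE, a secreted protein that speeds the removal of the C-terminal propeptide by BMP1, lies on chromosome 6 at 27188473 to 27193636. It had 272, 268 and 79.5 CPM in SOT folds, 376, 352 and 369 CPM in untreated folds and 77.0, 123 and 92.7 CPM in normal folds. SOT replicates 1 and 2 were alike and below every untreated library, while SOT replicate 3 lay within the normal range. PCOLCE rose 3.75-fold in untreated against normal folds (log2 1.91, SE 0.42, adjusted p = 0.0105 by edgeR).

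**Figure D2:**
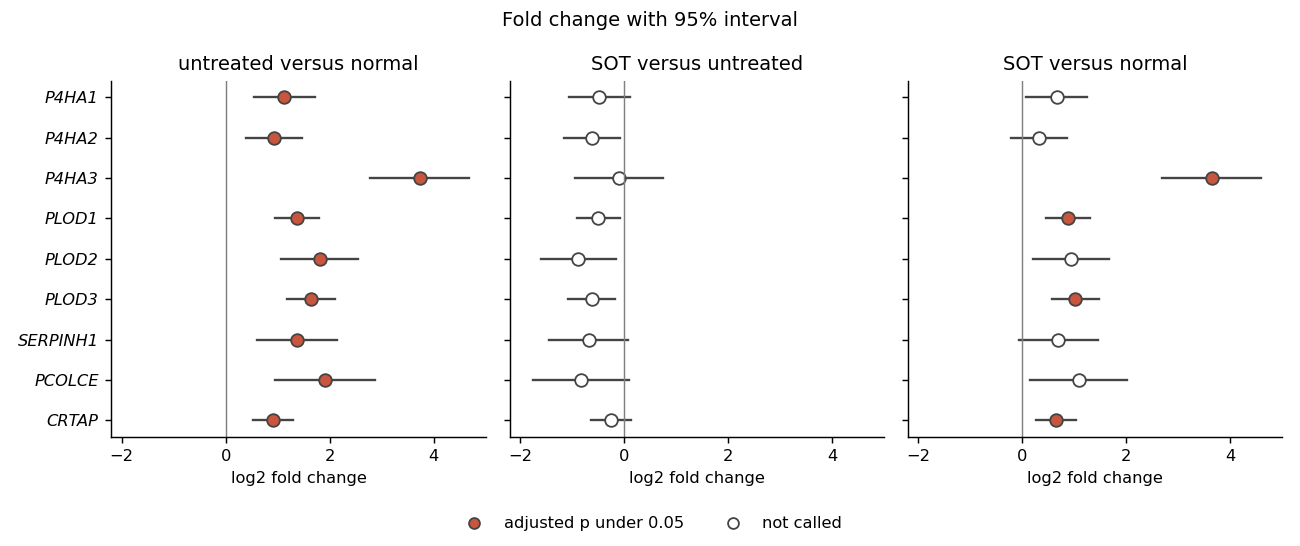
Log2 fold changes of the 9 members in 3 panels (untreated over normal, SOT over untreated, SOT over normal), with 95% confidence intervals from the edgeR fit as lines and filled points for an adjusted p under 0.05. In untreated against normal folds all 9 points are filled and above 0, in SOT against untreated folds all 9 are open and below 0, and in SOT against normal folds 4 are filled.

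Injured folds given SOT were compared with untreated injured folds to ask whether the gel went with different levels of these transcripts. No member was called. Across all genes 2 were called, or 0.0115%, both lower in SOT folds. At an unadjusted p under 0.05 there were 4 members, namely P4HA2, PLOD1, PLOD2 and PLOD3, all lower in SOT folds, against 7.59% of all genes lower and 12.6% in either direction at that level. This number was 1 without untreated replicate 2 (PLOD1), 2 without untreated replicate 3 (PLOD2 and PLOD3), 7 without SOT replicate 2 and 2 with only the 2 groups compared (PLOD1 and PLOD3). By DESeq2 no member was called either, with the lowest adjusted p at 0.0969 for PLOD3, while 682 genes (3.93%) were called.

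The 9 estimates were all below 0, as were 48.4% of those of all genes, with a median of -0.61 for the members and 0.01 for all genes. PLOD2 was at 92.1 ± 43.3 CPM in SOT folds and 169 ± 21.3 CPM in untreated folds (SD, n = 3 each), a log2 fold change of -0.88 with a 95% interval of -1.60 to -0.15. PCOLCE was at 206 ± 109.8 CPM in SOT folds and 366 ± 12.3 CPM in untreated folds, a log2 fold change of -0.83 with an interval of -1.76 to 0.10. These 2 estimates were the lowest of the set, and the interval of PCOLCE includes 0.

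SERPINH1 had an estimate of -0.68, PLOD3 of -0.62, P4HA2 of -0.61, PLOD1 of -0.50, P4HA1 of -0.47 and CRTAP of -0.25 on the log2 scale. The sizes rested in part on SOT replicate 3. Without it the log2 estimates were -0.52 for PLOD2, -0.40 for PCOLCE and PLOD3, -0.33 for SERPINH1 and PLOD1, -0.32 for P4HA2, -0.19 for P4HA1 and -0.11 for CRTAP. Without SOT replicate 2 the estimate was -1.14 for SERPINH1 and -0.46 for CRTAP, and without SOT replicate 1 it was -0.11 for CRTAP.

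P4HA3 was nearest to no difference, at -0.10 with an interval of -0.94 to 0.75, and its sign turned without SOT replicate 1 (0.11) or 3 (0.25). For 5 members, P4HA2, PLOD1, PLOD2, PLOD3 and PCOLCE, all SOT libraries were below all untreated libraries, which held for 12.4% of all genes. The summed macrophage and neutrophil markers given above were also lower in all SOT than in all untreated libraries. For neutrophil markers the gap was small, at 4659 against 4703 CPM. Summed cartilage markers were higher in all SOT libraries (109 to 334 CPM) than in all untreated ones (73.7 to 103 CPM). With all libraries edgeR called 0 of these markers. At an unadjusted p under 0.05 there were 5 of 7 macrophage, 1 of 7 neutrophil and 4 of 8 cartilage markers. DESeq2 called 4 macrophage, 0 neutrophil and 2 cartilage markers. Without SOT replicate 1, edgeR called 4 macrophage and 3 neutrophil markers lower. The part of all these markers in the members' estimates was not tested.

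SOT folds were also compared with normal folds, to ask how far the treated tissue stood from uninjured tissue. Of the 9 members, 4 were called, all higher in SOT folds, where 9.01% of all genes were called higher and 16.7% in either direction. P4HA3 rose 12.4-fold (log2 3.64, SE 0.41, adjusted p = 0.00321 by edgeR). PLOD3 rose by 1.01 on the log2 scale (adjusted p = 0.0140), PLOD1 by 0.88 (adjusted p = 0.0173) and CRTAP by 0.65 (adjusted p = 0.0348). The 3 SOT libraries lay above the 3 normal libraries for these 4 members, as they did for 17.8% of all genes.

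The other 5 members had estimates above 0 that did not pass: PCOLCE at 1.08 (adjusted p = 0.104), PLOD2 at 0.93 (adjusted p = 0.0782), SERPINH1 at 0.69 (adjusted p = 0.187), P4HA1 at 0.66 (adjusted p = 0.113) and P4HA2 at 0.31 (adjusted p = 0.391) on the log2 scale. SOT replicate 3 had a marked part in this. Without it all 9 members were called, beside 11.3% of all genes called higher, with adjusted p of 0.0140 for P4HA1, 0.0155 for P4HA2, 0.00613 for PLOD2, 0.0261 for SERPINH1 and 0.00470 for PCOLCE.

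P4HA3 and PLOD3 kept their calls whichever of the 9 libraries was left out. The PLOD1 call was lost without SOT replicate 2 (adjusted p = 0.0559), normal replicate 1 (0.0676) or normal replicate 3 (0.0517), over a range of 0.0133 to 0.0676. For CRTAP, leaving out normal replicate 1 (0.0988), 2 (0.108) or 3 (0.0577) ended the call, as did leaving out untreated replicate 2 (0.0539) or 3 (0.0648), over a range of 0.0247 to 0.108. DESeq2 called 6 members, with PCOLCE and PLOD2 beside the 4, and 14.3% of all genes higher. The count of members called was thus 2 without normal replicate 1 or 3 and 9 without SOT replicate 3.

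In CPM, the mean of the SOT libraries lay between the means of the untreated and the normal libraries for all 9 members. It did so for 29.7% of all genes. In FPKM the mean of P4HA3 was higher in SOT than in untreated folds, at 19.6 against 19.0. Behind these means the SOT libraries were far apart. SOT replicate 3 was the lowest of its group for 8 of 9 members, the exception being CRTAP, and SOT replicate 2 the highest for 6 of 9. The highest SOT library exceeded the lowest 3.42-fold for PCOLCE, 3.13-fold for P4HA3, 2.96-fold for SERPINH1 and 2.82-fold for PLOD2, and 1.42-fold for PLOD1, the member with the smallest gap. Among untreated libraries the same ratio was between 1.07 for PCOLCE and 1.35 for PLOD3, and among normal libraries between 1.08 for PLOD3 and 1.60 for PCOLCE.

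Relative to the other groups, SOT replicate 3 lay within the normal range for P4HA1, PLOD2 and PCOLCE and below it for P4HA2 and SERPINH1. SOT replicate 2 lay above all untreated libraries for P4HA3 and CRTAP and within their range for SERPINH1, and SOT replicate 1 lay between the untreated and normal ranges for 8 members. The libraries also differed in tissue markers. The summed fibroblast markers were at 3181, 4928 and 3028 CPM in SOT replicates 1, 2 and 3, and the summed skeletal muscle markers at 5499.7, 1281 and 5431 CPM. Replicate 2 was thus highest in fibroblast and lowest in muscle markers, and neither sum set replicate 3 far from replicate 1. In the same replicate order, the summed endothelium markers were at 1569.6, 869 and 540.2 CPM and the cartilage markers at 146, 109 and 334 CPM. Neutrophil markers were at 4659, 1764.5 and 1991 CPM, macrophage markers at 1024, 581 and 636 CPM and markers of stratified epithelium at 12097, 9989 and 15652.5 CPM. Replicate 3 was therefore lowest in endothelium and highest in cartilage and epithelium markers, and replicate 1 highest in markers of neutrophils, macrophages and endothelium. The part of any of these in the members' values was not tested.

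Compared with each other per length, in FPKM, the members kept much of their order between groups. SERPINH1 had the highest level, at 256 ± 137 FPKM in SOT folds, 372 ± 34.4 FPKM in untreated folds and 148 ± 15.5 FPKM in normal folds (SD, n = 3 each). PCOLCE followed at 107 ± 55.7, 174 ± 7.26 and 47.4 ± 11.7 FPKM in the same groups, then CRTAP at 69.7 ± 18.6, 75.2 ± 5.14 and 41.1 ± 3.63 FPKM, and P4HA2 at 39.8 ± 13.0, 55.6 ± 3.39 and 29.9 ± 3.07 FPKM. By their means these 4 came first in every group, although in SOT folds P4HA2 overlapped with PLOD1 and was the higher of the 2 in 2 of 3 libraries. In normal folds the ranges of PCOLCE and CRTAP overlapped, and in SOT folds so did, among these 4, those of SERPINH1 and PCOLCE and those of PCOLCE and CRTAP.

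PLOD1 and P4HA1 had neighbouring levels in every group, with overlapping ranges: 37.5 ± 6.57 and 35.8 ± 10.9 FPKM in SOT folds, 48.0 ± 4.83 and 45.4 ± 3.69 FPKM in untreated folds, and 19.0 ± 4.07 and 21.2 ± 4.39 FPKM in normal folds. PLOD2 came next at 21.9 ± 10.4 FPKM in SOT folds, 36.6 ± 4.39 FPKM in untreated folds and 10.7 ± 0.979 FPKM in normal folds. PLOD3 was at 17.4 ± 3.76, 24.3 ± 3.61 and 8.02 ± 0.257 FPKM in these groups. P4HA3 was last in normal folds at 1.45 ± 0.265 FPKM and last in untreated folds at 19.0 ± 0.947 FPKM, and in SOT folds, at 19.6 ± 12.4 FPKM, its range overlapped those of PLOD2 and PLOD3.

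Within the family of prolyl 4-hydroxylase alpha subunits, P4HA3 made up a larger share of the summed FPKM in injured folds. The share of P4HA3 was 13.6%, 27.6% and 18.3% in SOT libraries, 17.7%, 15.2% and 14.7% in untreated libraries and 2.65%, 3.37% and 2.29% in normal libraries. All injured libraries stood above all normal ones, and the SOT libraries lay on both sides of the untreated ones. The P4HA3 share was 13.1 percentage points higher in untreated than in normal folds and 17.1 points higher in SOT than in normal folds.

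The share of P4HA2 was 43.3%, 40.4% and 42.1% in SOT libraries, 45.8%, 45.6% and 47.5% in untreated libraries and 49.0%, 62.5% and 59.6% in normal libraries. Here the 3 groups were separate and lowest in SOT folds. P4HA1 held 38.2% ± 5.63 of the family in SOT folds, 37.8% ± 1.36 in untreated folds and 40.2% ± 7.33 in normal folds, with overlapping libraries. Each of these separations had p = 0.1 by a two-sided exact permutation test, the smallest p that 3 against 3 allows, and 0.36 when adjusted over 18 tests, so none could pass.

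Among the lysyl hydroxylases the balance differed little. PLOD1 held 49.7% ± 5.54 of the summed FPKM in SOT folds, 44.2% ± 5.66 in untreated folds and 50.0% ± 4.76 in normal folds. PLOD2 held 27.4% ± 6.62, 33.5% ± 3.01 and 28.5% ± 2.28, and PLOD3 22.9% ± 3.21, 22.3% ± 2.68 and 21.5% ± 2.83 in the same groups. The libraries of every pair of groups overlapped for all 3 genes. The lowest p was 0.2 by the two-sided exact permutation test, for PLOD2 in untreated against normal folds. All these shares rest on the partial PLOD3 model. The neighbouring gene described as lysyl hydroxylase 1 was not counted in the family. Its mean was 33.9 FPKM in SOT folds, 44.4 FPKM in untreated folds and 18.1 FPKM in normal folds, above that of PLOD3 in each group.

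**Figure D3:**
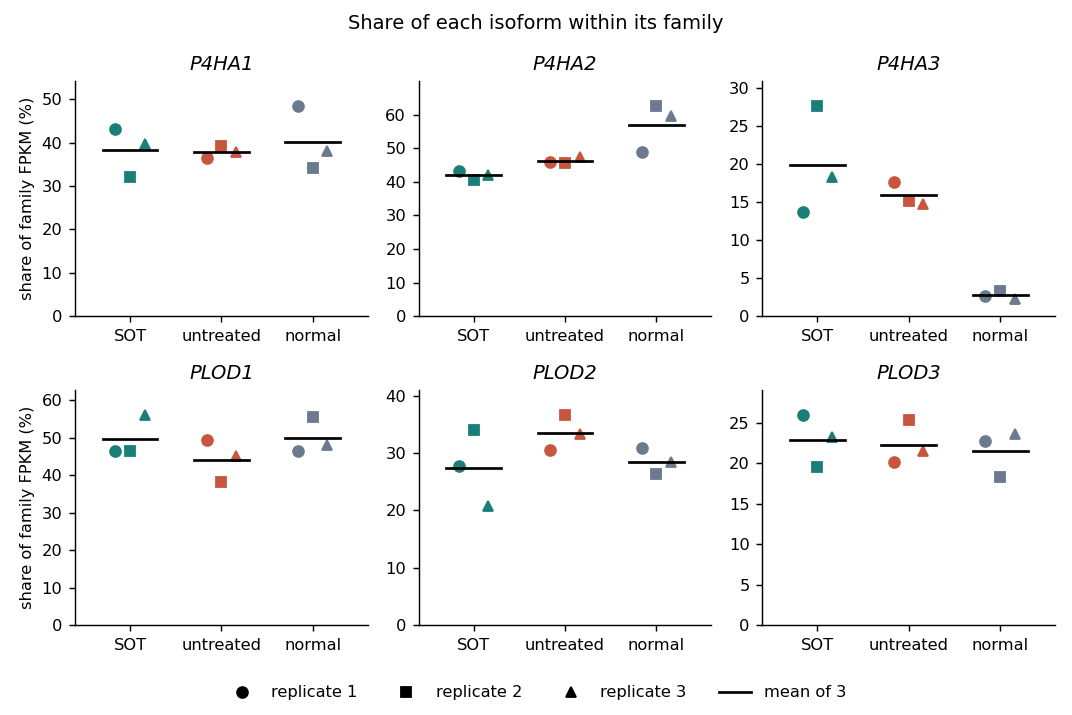
Share (percent of summed FPKM, axes from 0) of each prolyl 4-hydroxylase alpha subunit within its family and of each lysyl hydroxylase within its family, by library, with SOT folds on the left, untreated folds in the middle and normal folds on the right. P4HA3 lies at 2.29% to 3.37% in normal folds and at 13.6% or more in every injured library, while the 3 lysyl hydroxylases overlap between groups.

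Each member was also set against COL1A1, which encodes the alpha chain that makes up most of type I collagen and lies on chromosome 19 at 37474894 to 37490691. COL1A1 was at 6062 ± 2916 CPM in SOT folds, 11688 ± 187 CPM in untreated folds and 1983 ± 527 CPM in normal folds. It rose by 2.56 on the log2 scale in untreated against normal folds (adjusted p = 0.00207 by edgeR). This was more than the estimate of 8 of the 9 members, and less than that of P4HA3.

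SERPINH1 had 21.5% ± 3.91 of the COL1A1 level, per length, in SOT folds, 18.1% ± 1.81 in untreated folds and 43.5% ± 13.2 in normal folds. CRTAP had 6.32% ± 1.37, 3.65% ± 0.224 and 12.2% ± 3.95, and P4HA2 3.62% ± 1.28, 2.70% ± 0.131 and 8.68% ± 1.80 in the same groups. For these 3 members and 5 others, all but P4HA3, the ratio was lower in all 3 untreated libraries than in all 3 normal libraries. The differences in log2 ratio were between -1.69 for CRTAP and -0.67 for PCOLCE. COL1A1 rose more than each of these members, and any gene that rises less than COL1A1 has a lower ratio. How many of all genes had such lower ratios was not counted.

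P4HA3 had 1.60%, 1.82% and 1.36% of the COL1A1 level in SOT libraries, 0.983%, 0.929% and 0.856% in untreated libraries and 0.582%, 0.404% and 0.300% in normal libraries. The groups were separate, with SOT folds highest, and the difference in log2 ratio was 0.78 in SOT against untreated folds and 1.16 in untreated against normal folds. CRTAP also had a higher ratio in all SOT than in all untreated libraries, with a difference of 0.77. Neither transcript was itself called in that comparison, with log2 estimates of -0.10 for P4HA3 and -0.25 for CRTAP. COL1A1 was not called in it either, with 6062 ± 2916 CPM in SOT folds and 11688 ± 187 CPM in untreated folds. In SOT replicates 1, 2 and 3, COL1A1 was at 885, 1856 and 802 FPKM, against 2019 to 2122 FPKM in untreated libraries. P4HA3 was at 14.1, 33.8 and 10.9 FPKM in the same replicates, against 18.2 to 20.0 FPKM in untreated libraries. Replicate 2, with the highest P4HA3 ratio, thus had the most COL1A1 of the SOT libraries and more P4HA3 than any untreated library. How many of all genes had ratios separated in this way was not counted. The other 7 members overlapped between SOT and untreated folds. Each of these separations had p = 0.1 by a two-sided exact permutation test, the smallest possible, and 0.18 when adjusted over 27 tests.

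**Figure D4:**
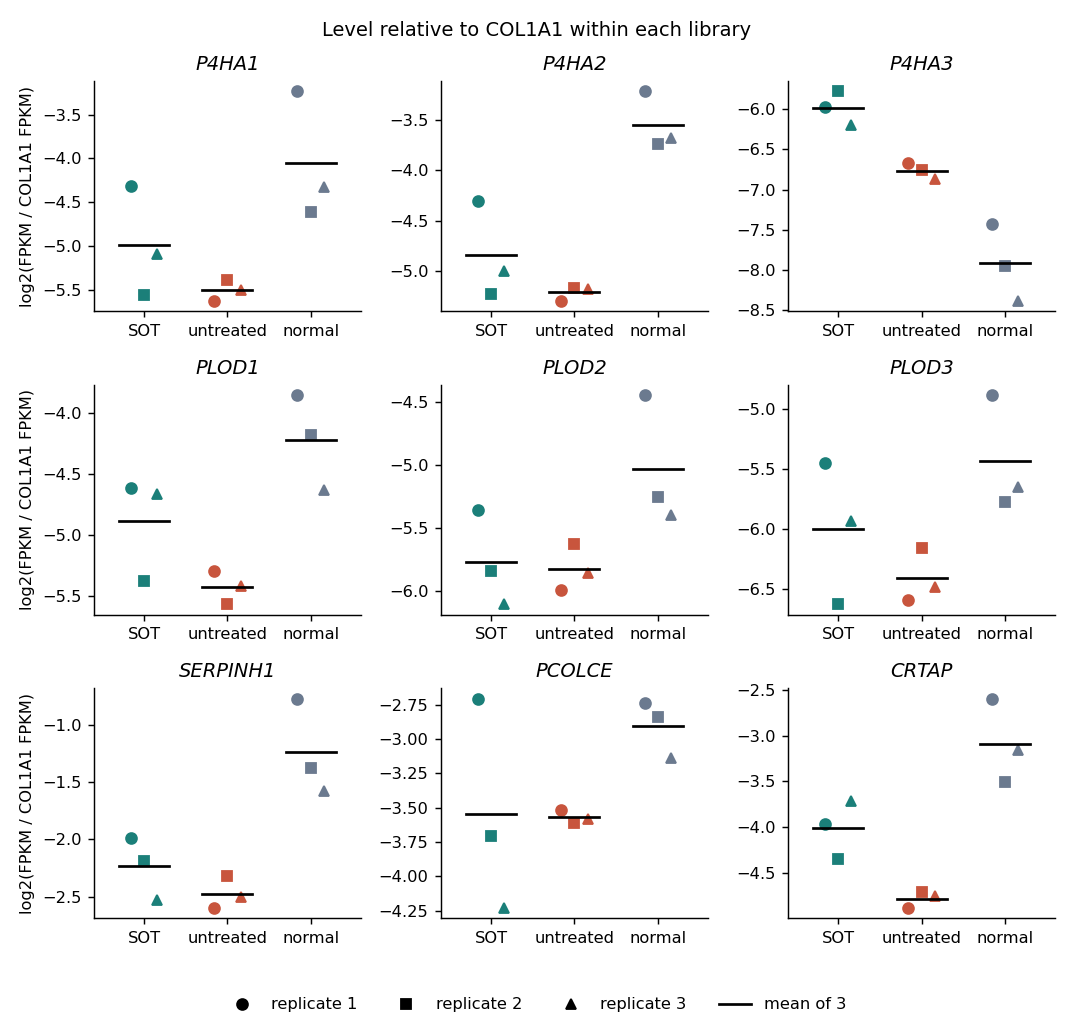
Log2 ratio of each member's FPKM to that of COL1A1 by library (each panel has an axis of its own), with SOT folds on the left, untreated folds in the middle and normal folds on the right, points for libraries and a line for the mean of 3. P4HA3 is the 1 member whose log2 ratio is lowest in normal folds, at -8.38 to -7.42, and it is highest in SOT folds, at -6.20 to -5.78.

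The genes that work beside the members were counted by lists chosen for their function. Each count in untreated against normal folds stands beside 17.7% of all genes called higher and 32.8% called in either direction. Among 9 measured partners in the endoplasmic reticulum, 4 rose, 2 fell and 3 were not called in untreated against normal folds, with a median log2 fold change of 0.98. P3H1, the prolyl 3-hydroxylase that binds CRTAP, was at 113 ± 17.5 CPM in untreated folds and 42.5 ± 6.16 CPM in normal folds (log2 1.42, adjusted p = 0.00699 by edgeR). PPIB, a prolyl isomerase in the same complex, rose by 0.98 (adjusted p = 0.00268). All 3 parts of that complex, CRTAP included, thus rose.

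FKBP10, another prolyl isomerase of collagen, rose by 1.25 (adjusted p = 0.0419). COLGALT2, which adds galactose to hydroxylysine, fell by 2.56 to 0.966 ± 0.380 CPM in untreated folds, against 5.69 ± 1.15 CPM in normal folds, and TMEM38B, a potassium channel of the endoplasmic reticulum, fell by 1.10 (adjusted p = 0.0499). COLGALT1, which was in the same list, was not found by name and was not analysed. The FKBP10 call was lost without SOT replicate 1, any untreated replicate or normal replicate 1 or 3, with adjusted p of 0.0599 to 0.127. The TMEM38B call was lost without SOT replicate 3, untreated replicate 2 or 3 or any normal replicate, with adjusted p of 0.0533 to 0.157. When untreated replicate 2 or 3 or normal replicate 1 or 3 was left out, the number that rose was 2.

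Of 8 measured genes of procollagen export, 3 rose, 1 fell and 4 were not called, beside 32.8% of all genes called in either direction. The coat proteins SEC24D, SEC31A and SEC13 rose by 1.03, 0.62 and 0.41 on the log2 scale, and the small GTPase gene SAR1B fell by 0.67. The number that rose was 1 without untreated replicate 2 or 3 or normal replicate 2, and 0 without normal replicate 3. The calls of SEC24D (adjusted p = 0.0263) and SEC13 (adjusted p = 0.0260) were each lost in 5 of 9 such fits, up to 0.0879 and 0.0882, and that of SEC31A (adjusted p = 0.0122) without normal replicate 3 (0.0516).

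Propeptide removal held the widest contrasts among the helpers. Of 7 genes, 3 rose, 2 fell and 2 were not called in untreated against normal folds. The N-propeptidase gene ADAMTS14 was at 12.9 ± 2.42 CPM in untreated folds and 0.764 ± 0.0246 CPM in normal folds (log2 4.07, adjusted p = 0.000509 by edgeR), and its relative ADAMTS2 rose by 2.74. BMP1, the C-propeptidase that PCOLCE assists, was at 424 ± 43.1 CPM in untreated folds and 98.5 ± 5.10 CPM in normal folds (log2 2.11).

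PCOLCE2, a relative of PCOLCE that also enhances the C-propeptidase, went the other way. It had 34.1 ± 7.82 CPM in untreated folds and 534 ± 192 CPM in normal folds, a fall of 3.97 on the log2 scale (adjusted p = 0.000697 by edgeR). The 2 enhancers thus differed in direction, PCOLCE being higher and PCOLCE2 lower in untreated folds. In SOT folds PCOLCE2 was at 49.9 ± 20.7 CPM, also lower than in normal folds (log2 -3.42, adjusted p = 0.00348).

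Of the 5 lysyl oxidases, 4 rose in untreated against normal folds, LOXL2 by 3.52, LOX by 1.87, LOXL1 by 1.27 and LOXL4 by 1.22 on the log2 scale, and LOXL3 was not called. LOXL2 was at 266 ± 104 CPM in SOT folds, 527 ± 99.6 CPM in untreated folds and 45.9 ± 9.09 CPM in normal folds. Each of the 4 was also called higher in SOT than in normal folds, where 9.01% of all genes were called higher. Without normal replicate 1 or 3 the number was 2, LOXL1 (adjusted p = 0.0736 and 0.0564) and LOXL4 (0.0577 and 0.0515) being lost. Without SOT replicate 2 the LOXL4 call was lost as well (0.0568).

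Of 9 fibrillar collagen chains, 6 rose, 2 fell and 1 was not called in untreated against normal folds. COL5A3 rose most, by 4.96 on the log2 scale. The cartilage chains COL2A1 and COL11A2 fell by 6.02 and 5.77, beside the cartilage marker sums given above. In human cells P4HA1 and PLOD2 are known to be induced by low oxygen. Of 12 other genes listed for the low-oxygen response, HIF1A included, 5 rose, 1 fell and 6 were not called in untreated against normal folds. Across all genes 17.7% were called higher there and 32.8% in either direction. Any part of low oxygen in the members' values was not tested.

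HIF1A, which encodes a transcription factor of the low-oxygen response, was at 636 ± 104 CPM in untreated folds and 98.1 ± 8.89 CPM in normal folds (log2 2.70, adjusted p = 0.00184 by edgeR). This is a level of RNA, and the HIF1A protein was not measured. The glucose transporter gene SLC2A1 rose by 1.71, the oxygen sensor gene EGLN3 by 2.45 and ADM, which encodes adrenomedullin, by 1.92. PDK1, a kinase that holds back pyruvate oxidation, fell by 1.24. The number that rose was 2 when normal replicate 1, normal replicate 3 or untreated replicate 3 was left out, and 3 for each other injured untreated or normal library, while the number that fell was 2 without SOT replicate 3. The ADM call (adjusted p = 0.0295) was lost without any 1 of these 6 libraries, with 0.0532 to 0.0962, and the EGLN3 call (adjusted p = 0.0232) without any 1 of them but untreated replicate 2, with 0.0570 to 0.0796.

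In SOT against untreated folds no gene of these 6 lists was called by edgeR with all libraries. At an unadjusted p under 0.05 there were 5 of 9 fibrillar collagen chains, of which DESeq2 called COL11A1 and COL5A3 lower, and 1 to 3 genes in each of the other 5 lists, of which DESeq2 called 0. Without SOT replicate 1 the glycolysis gene PGK1 was called lower (adjusted p = 0.0387, against 0.287 with all libraries), and in that fit 2.24% of all genes were called. The genes with the smallest p in their lists included BMP1, at 252 ± 80.7 CPM in SOT folds and 424 ± 43.1 CPM in untreated folds (log2 -0.75, adjusted p = 0.238). LOXL2 had an estimate of -0.98 (adjusted p = 0.256), COL5A3 of -1.45 (adjusted p = 0.256) and PPIB of -0.42 (adjusted p = 0.310). COLGALT2 had an estimate in the other direction, at 1.99 ± 0.538 CPM in SOT folds and 0.966 ± 0.380 CPM in untreated folds (log2 1.04, adjusted p = 0.288), with all SOT libraries above all untreated ones. Of the 12 genes with the smallest p, 2 per list, 11 had estimates below 0 and COLGALT2 alone one above. Picked by p, these genes need not stand for their lists, and 48.4% of all genes had estimates below 0. Estimates above 0 were found for 2 of 9 partners in the endoplasmic reticulum, 3 of 8 export genes and 3 of 7 propeptide genes. They were found for 0 of 5 lysyl oxidases, 2 of 9 fibrillar collagen chains and 2 of 12 low-oxygen genes.

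**Figure D5:**
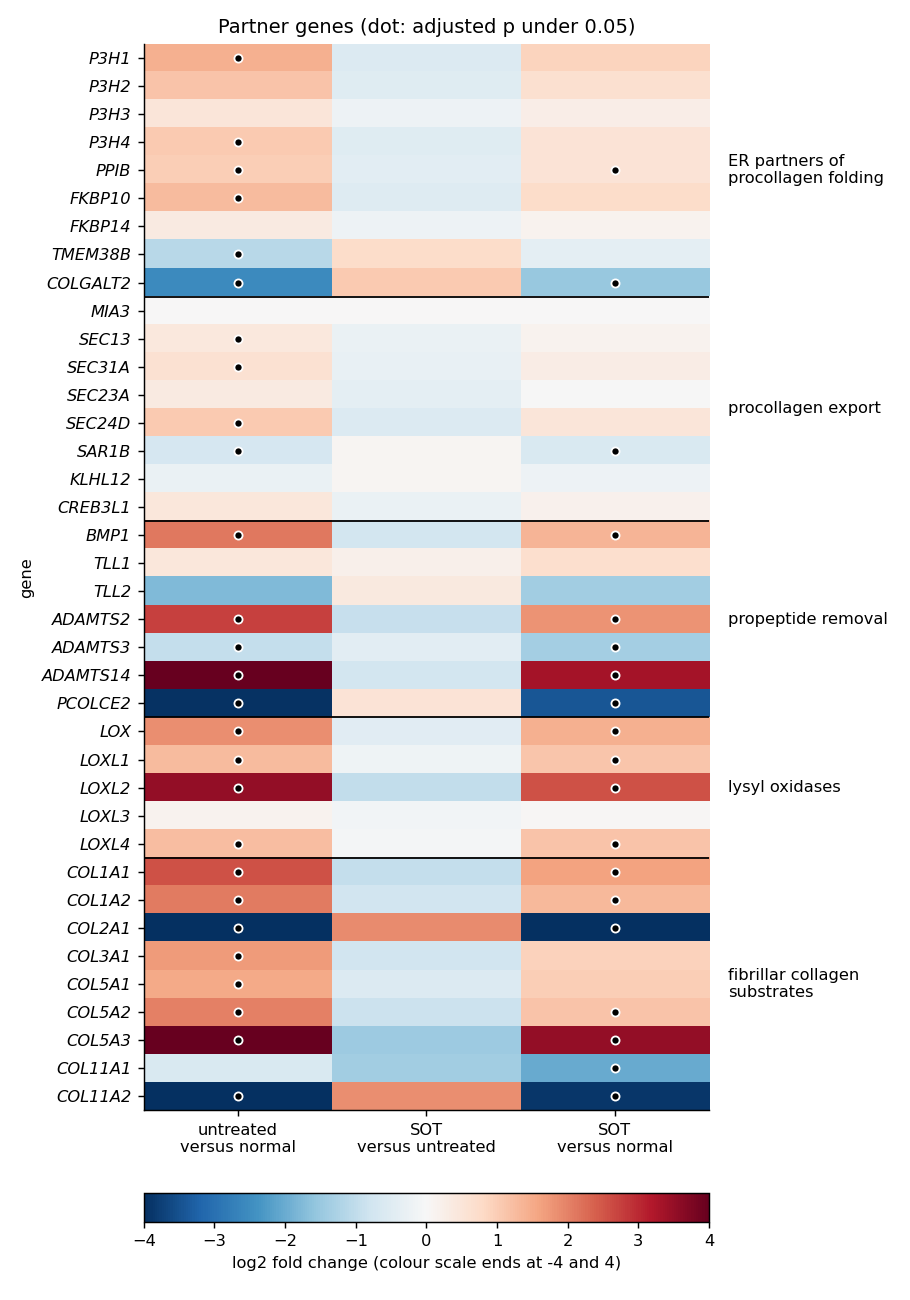
Log2 fold changes (colour scale, which ends at -4 and 4) of the partner genes of 5 lists, those of the low-oxygen response not being shown, in columns for untreated over normal, SOT over untreated and SOT over normal folds, with a dot for an adjusted p under 0.05 by edgeR. Dots are found in the columns against normal folds and none in the column of SOT against untreated folds.

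The members were compared with each other by the root mean square difference of log2 CPM over the 9 libraries, each gene centred on its own mean, so that a small value means a like pattern. PLOD2 and SERPINH1 were closest, at 0.20, followed by P4HA1 and PLOD3 at 0.25. P4HA3 stood apart from every other member, with values between 1.14 and 1.46. The widest difference among the other 8 members was 0.64, between PCOLCE and CRTAP.

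By the same measure over 12488 other genes with a symbol and a mean of at least 1 CPM, the genes most like P4HA3 were ADAMTS14 at 0.40 and MLANA at 0.41. KDELR3, at 0.12, and GPX7, at 0.15, were most like SERPINH1. TUSC3 and PDLIM7 were most like PLOD2, TNFAIP6 and CD163 most like PCOLCE, TSPAN14 and LPP most like CRTAP, and PLEKHG2 and VMP1 most like PLOD3. PGAM1 and PAQR8 were most like P4HA1, TSKU and NTN1 most like P4HA2, and VSIG4 and CCDC190 most like PLOD1, all with values between 0.08 and 0.20. These values describe 9 libraries that share the same 3 groups.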

How the data were processed

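Polyadenylated RNA was sequenced in 9 libraries, 3 per group. Cutadapt 1.9, HISAT2 2.0.4, StringTie 1.3.4d and edgeR were run against OryCun2.0, per the submitters' processing notes. Strandedness and the treatment of multi-mapping reads are not stated there. The deposited table gives whole-number read counts and FPKM values per gene and library, per the file headers. Counts were fitted in R 4.3.3 with edgeR 4.0.16 (filterByExpr, trimmed means of M values, 1 mean per group, quasi-likelihood test, all 9 libraries), and p-values were adjusted over 17344 genes. CPM values are normalised counts from that fit. Deposited FPKM values were used for levels between genes, shares and ratios to COL1A1, with exact permutation tests in SciPy 1.17.1. DESeq2 1.42.0, limma 3.58.1 on log2(FPKM + 0.1) and log2(FPKM + 1), other scaling, no filter, only the 2 groups compared, a replicate block and leaving out each library were alternatives. The code was tested on simulated counts with a set spread, which need not be that of these libraries. At an adjusted p under 0.05 by edgeR it recovered 52 of 100 genes changed by 1 on the log2 scale. It recovered 98 of 99 genes changed by 2 and called 6 unchanged genes. The members, lists and tests were chosen with earlier results of these data known. Named genes are the members, COL1A1, up to 4 genes per list with the largest change among those called, or otherwise the 2 of smallest p, and the 2 genes most like each member. A further check added the counts of neighbouring or partial copies to PLOD3 and SERPINH1. Genes that share reads with a copy are uncertain to that extent. No sequences are shown.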

Additional observations from a re-analysis of the deposited data

How the results depend on the processing

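All 9 members were called in untreated against normal folds under each alternative with all libraries, and 7 to 9 when 1 library was left out. No member was called in SOT against untreated folds under any alternative. P4HA3 alone changed sign there, at 0.11 without SOT replicate 1 and 0.25 without SOT replicate 3, in a range of -0.70 to 0.25 over the left-out libraries. Against normal folds, the 4 members called in SOT folds were 6 by DESeq2, which added PCOLCE and PLOD2, 3 with only the 2 groups compared, and 2 to 9 when 1 library was left out. Genes called in untreated against normal folds were 3145 to 6026 when 1 library was left out, against 5692. In SOT against untreated folds the 2 genes called became 682 by DESeq2 (229 higher, 453 lower), 0 and 27 by limma with pseudocounts of 0.1 and 1, 0 with only the 2 groups compared and 0 to 397 when 1 library was left out. In SOT against normal folds the 2894 became 4819 by DESeq2, 1578 with only the 2 groups compared and 1135 to 3222 when 1 library was left out. The causes were not tested. Limma on log2(FPKM + 0.1) put the median of all genes at 0.13 in SOT against untreated folds, where edgeR had 0.01. With deposited counts in place of FPKM, the P4HA3 share was 11.0 percentage points higher in untreated than in normal folds, against 13.1. Whether the replicate numbers pair libraries was not settled by correlations. Those of same-numbered libraries were between -0.05 and 0.27, and those of libraries with different numbers between -0.28 and 0.17. The highest was that of SOT replicate 2 with untreated replicate 2. With a replicate block the genes called were 5526 in untreated against normal folds, 0 in SOT against untreated folds and 2625 in SOT against normal folds. The members called were 9, 0 and 3 in that order, CRTAP being lost (adjusted p = 0.0549 by edgeR). With 3 libraries per group, the spread among SOT libraries limits what the comparison with untreated folds can show.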
